A study of Saccharomyces cerevisiae with 3 samples.

Results

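The siderophore iron uptake genes of budding yeast were followed through the first rounds of replicative ageing. They are 7 genes, FIT1, FIT2, FIT3, ARN1, ARN2, SIT1 and ENB1, taken by symbol (SIT1 and ENB1 also by the systematic names YEL065W and YOL158C) out of 5792 yeast gene features on the array. Each is measured by 1 spot. All cells were of BY4742, a haploid of mating type alpha that lacks HIS3, LEU2, LYS2 and URA3, grown at 30 °C in YPD, a rich medium. Older cells carried a biotin label and were pulled out on magnetic beads in their 4th, 7th or 11th generation. On each of 3 arrays of 2 channels, RNA of 1 older generation was read in Cy3 and RNA of 1st generation cells in Cy5. There was 1 array per generation, no swap of dyes and no replicate, so no error and no p-value can be given for any gene. How the 1st generation cells were collected is not given in the sources used here, so age, the bead isolation and the dye cannot be told apart in a value set against the 1st generation. RNA came from populations of cells, in which more transcript per cell and a larger share of cells with the transcript cannot be told apart either.

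Budding yeast makes no siderophores, the small iron chelators that bacteria and other fungi secrete, but it takes up iron bound to those of its neighbours. The 3 FIT proteins are mannoproteins tied to the cell wall by a glycosylphosphatidylinositol anchor, and they hold siderophore-iron in the wall. The 4 transporters of the ARN family then carry the chelate into the cell, each with its own preference: Arn1 for ferrichromes, Arn2 for triacetylfusarinine C, Sit1 for ferrioxamine B and Enb1 for enterobactin. All are textbook targets of the iron-responsive transcription factors Aft1 and Aft2, which switch on uptake genes when iron is short.

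Values below are log2 ratios of the older over the 1st generation after background correction and normalization within the array, and a gene is counted as higher when it is at least 2-fold above the 1st generation, a log2 ratio of 1. Median raw signals of all features were 161 to 177 in Cy5 and 496 to 591 in Cy3, and 5567 to 5703 features were above the blank spots in at least 1 channel. In the 1st generation channel the alpha-specific genes had median percentiles of 92.5 to 94.2 and the a-specific genes 18.2 to 20.7, as the label says. Of the 4 deleted genes, LEU2 was below the blank limit in both channels, and LYS2 and URA3 were just above it in Cy5. HIS3 went against the label, with Cy5 signals of 435, 430 and 356, above the median feature on each array; whether its probe lies in the deleted part is not given in the sources used here. All 4 alpha-specific genes were at least 2-fold lower at the 11th generation (5.51% of features were), with a median log2 ratio of -2.36, and their part in the results below was not tested. A single spot carries error. The 8 spots of the actin gene ACT1 had log2 ratios with an SD of 0.40 at the 4th, 0.44 at the 7th and 0.64 at the 11th generation. Place on the slide moves with the ratio: features in even print blocks, taken as runs of spots in file order, had a median above that of odd blocks by 0.45, 0.45 and 0.44. With normalization inside each block the ACT1 SDs were 0.18, 0.18 and 0.62, and the values of the genes under that treatment are given beside the main ones. FIT2, ARN1, SIT1 and ENB1 lie in even blocks, and FIT1, FIT3 and ARN2 in odd ones.

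All 7 genes had signal above the blank spots in both channels of all 3 arrays. At the 11th generation all 7 were at least 2-fold higher than in the 1st, against 7.35% of all features, with a median log2 ratio of 2.51 where the median of all features was 0.03. At the 4th generation 3 of the 7 were at least 2-fold higher, against 4.19% of features, and at the 7th generation 4 of 7, against 4.56%. None was 2-fold lower on any array. With normalization inside print blocks 6 of 7 passed 2-fold at the 11th generation, ENB1 falling just short at 0.99, and again 3 and 4 at the earlier ones. The shares of features given here are from the main processing, and none is given for that inside blocks. Read within even and odd blocks apart, the 11th generation array had all 4 genes of even blocks higher, where 10.9% of features were, and all 3 of odd blocks, where 3.82% were.

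**Figure D1:**
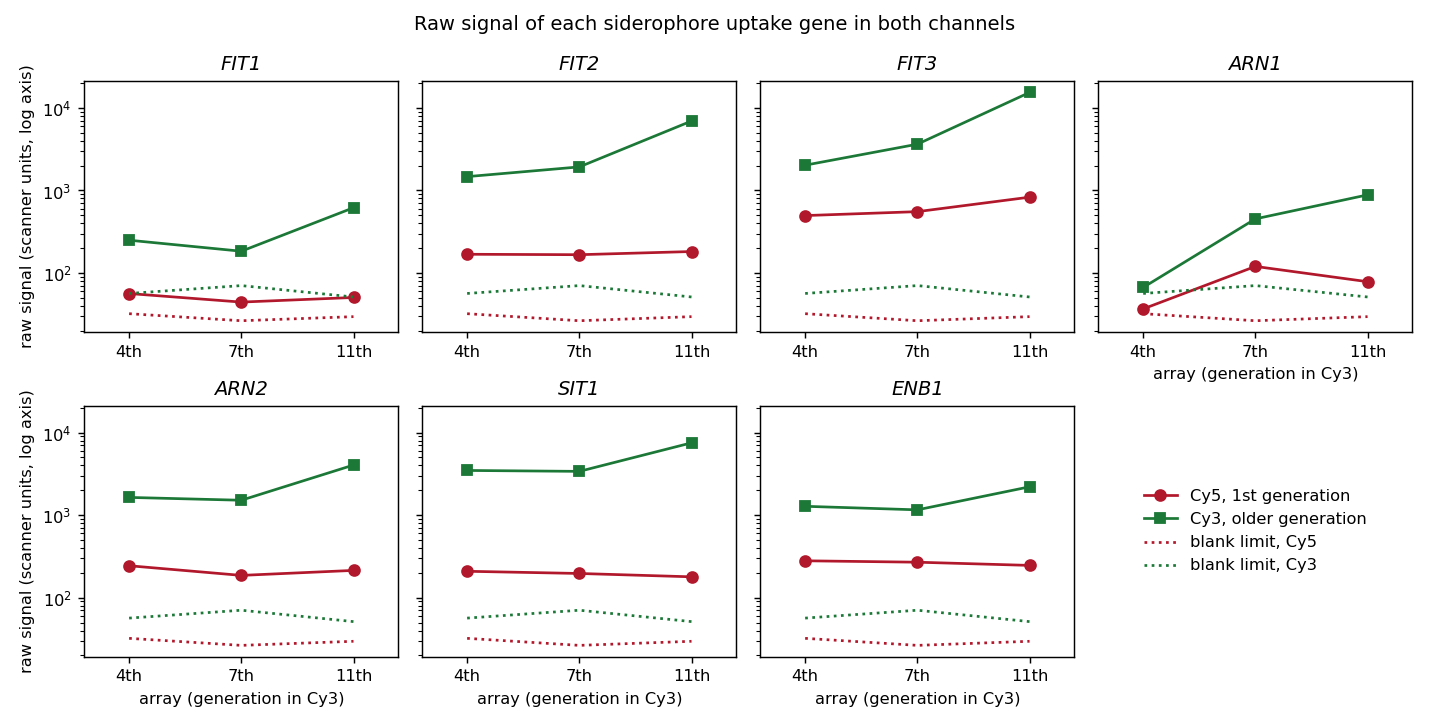
Raw signal of the 7 genes on a log axis, for the 1st generation (Cy5, circles) and the older generation (Cy3, squares) on each of the 3 arrays; dotted lines mark the limit set by the blank spots (mean plus 2 SD). The Cy3 signal of FIT3 goes from 2026 to 15407, while ARN1 on the 4th generation array lies close to both limits.

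FIT2 (YOR382W) gave raw Cy3 signals of 1472 at the 4th, 1931 at the 7th and 6943 at the 11th generation, the order kept below, over 1st generation signals of 169, 167 and 182. The Cy3 signal was thus by far the brightest on the last array, while the reference hardly moved. Its log2 ratios were 1.53, 1.86 and 3.53, the last of them an 11.6-fold higher level and the 7th highest of 5703 features. Inside print blocks they were 1.38, 1.68 and 3.16.

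FIT3 (YOR383C), the neighbour of FIT2 on the chromosome, gave Cy3 signals of 2026, 3638 and 15407. The 1st generation signals, 497, 554 and 830, also went up from array to array although all 3 were labelled as the same generation. Log2 ratios were 0.62, 1.35 and 3.04, so that FIT3 was below 2-fold at the 4th generation and 8.25-fold higher at the 11th. Inside blocks the last value was 3.38, and in the authors' deposited table it was 2.36, a ratio of 5.15.

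FIT1 (YDR534C) was a dim spot, with 1st generation signals of 56.5, 44.5 and 50.6 against a blank limit of 32.2, 26.4 and 29.6. Its Cy3 signals were 250, 184 and 618, the brightest on the 11th generation array. The log2 ratios were 0.57, 0.40 and 1.44, a 2.72-fold higher level at the 11th generation. For a dim gene the offset of the background correction pulls the ratio towards 0: plain subtraction of the blank signal gave 5.05-fold at the 11th generation, and the authors' deposited table gives a ratio of 6.11. At the 4th and 7th generation plain subtraction gave 2.02-fold and 1.73-fold, and the deposited ratios are 2.35 and 2.07.

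SIT1 (YEL065W), the ferrioxamine B transporter, stood out already at the 4th generation. Raw Cy3 signals were 3477, 3390 and 7516, and those of the 1st generation were 209, 196 and 179. With log2 ratios of 2.53, 2.51 and 3.68 it ranked 4th, 6th and 6th from the top of all features. The 4th and 7th generation values were nearly the same, at 5.77-fold and 5.71-fold, and the 11th was at 12.8-fold. Print block normalization left 2.15, 2.25 and 3.32. In the authors' deposited table SIT1 carries no mark as up at the 7th generation, although its deposited ratio there is 6.23; 19 features of that array with a ratio of 2 or more lack the mark.

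ARN2 (YHL047C), the triacetylfusarinine C transporter, had Cy3 signals of 1639, 1515 and 4043 over references of 244, 186 and 214. Its log2 ratios of 1.21, 1.37 and 2.51 repeat the course of SIT1 at a lower level, with a 5.70-fold higher level at the end. Inside blocks ARN2 was at 1.36, 1.55 and 2.57.

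ENB1 (YOL158C) is the enterobactin transporter. Its Cy3 signals were 1279, 1159 and 2204 and its references 280, 269 and 246, which gave log2 ratios of 0.68, 0.53 and 1.41. The 2.66-fold higher level of the 11th generation became 1.98-fold inside blocks, below the threshold.

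ARN1 (YHL040C), the ferrichrome transporter, did not behave like the other transporters on the 4th generation array. There its raw signals were 66.9 in Cy3 and 36.8 in Cy5, just above blank limits of 56.6 and 32.2, whereas on the other arrays it was well above background in both, with 453 and 885 in Cy3 and 120 and 78.5 in Cy5. Its log2 ratios were -0.11, 0.26 and 1.44, the last a 2.72-fold higher level. Both channels were low together on the 4th generation array, so its ratio there rests on little signal. The copper-responsive reductase gene FRE7 showed a like drop of both channels, with Cy5 signals of 96.5 on the 4th generation array against 316 and 335 on the others. Inside blocks the ARN1 ratio was -0.16, -0.0004 and 1.06; the authors' deposited table gives -0.53, 0.44 and 2.09.

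**Figure D2:**
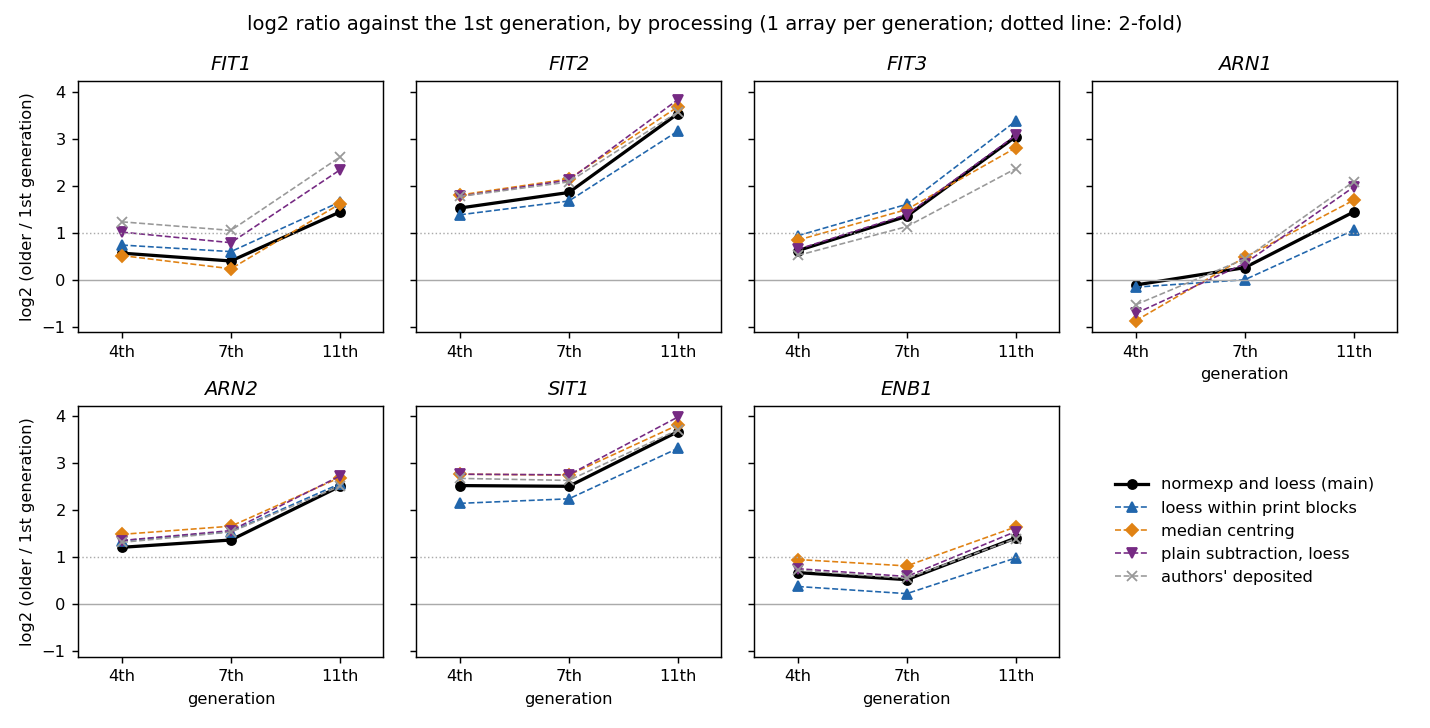
Log2 ratio of each gene against the 1st generation (vertical axis) at the 3 older generations (horizontal axis, not to scale), after the main processing (solid line) and 4 other treatments of the same arrays (dashed lines). The 11th generation value is the highest of its line for every gene and treatment, while FIT1 and ARN1 differ most between treatments.

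Ranked by log2 ratio at the 11th generation, the order was SIT1, FIT2, FIT3, ARN2, ARN1, FIT1 and ENB1. The steps between the first 4, at 0.14, 0.49 and 0.53, were smaller than the SD of 0.64 among the ACT1 spots of that array. The order of these 4 is thus not set apart by these data, and inside blocks FIT3 came first. ACT1 is bright, with raw Cy3 signals of 14495 to 17545 there, so its SD is only a rough guide to the error of dimmer spots. A wider step of 1.07 lay between ARN2 and ARN1. The last 3 lay within 0.03 of one another. Both the step and this closeness depend on the treatment. In the authors' deposited table FIT1 was at 2.61, above ARN2 at 2.51 and FIT3 at 2.36, with ARN1 at 2.09 and ENB1 at 1.40. Plain subtraction gave 2.73 for ARN2, 2.34 for FIT1, 1.97 for ARN1 and 1.55 for ENB1.

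How the genes moved between older generations was read from the difference of log2 ratios of 2 arrays, in which a constant effect of dye or of place on the slide drops out. Between the 4th and the 7th generation no member differed by 2-fold, and 0.162% of all features were that much higher. The SD of this difference over all features was 0.18, and FIT3 was higher by 0.73 (1.66-fold), the 26th highest of 5550 features. ARN1 was higher by 0.37 and FIT2 by 0.33. ARN2, SIT1, ENB1 and FIT1 differed by 0.16, -0.02, -0.15 and -0.17, all within that SD. The ARN1 difference passed 2-fold with median centring (1.35 on the log2 scale) and with plain subtraction (1.06).

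From the 4th to the 11th generation all 7 were higher, 5 of them at least 2-fold, against 2.66% of features. FIT3 led with 5.37-fold, followed by FIT2 with 4.02-fold, ARN1 with 2.94-fold, ARN2 with 2.46-fold and SIT1 with 2.21-fold, while FIT1 at 1.83-fold and ENB1 at 1.67-fold stayed under the threshold. The same order of the 7 genes was found inside print blocks. SIT1, with the highest ratio of the 7 at the 4th generation, came 5th of the 7 in this difference. The FIT1 value depends on the treatment: it was under the threshold inside blocks too, at 1.89-fold, but past it with no background correction (2.09-fold), median centring (2.14-fold) and plain subtraction (2.50-fold), and at 2.60-fold from the authors' deposited table. For dim ARN1 the size depends on the treatment, with 2.32-fold inside blocks and 6.45-fold under plain subtraction.

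Most of this lay between the 7th and the 11th generation. There 6 of 7 were at least 2-fold higher, against 1.85% of features, and ENB1 was 1.85-fold higher. FIT3 and FIT2 again came first, at 3.23-fold and 3.19-fold. The 4 genes behind them, ARN1, SIT1, ARN2 and FIT1, were nearly level, at 2.27-fold, 2.24-fold, 2.21-fold and 2.06-fold; from the authors' deposited table ARN2 was at 1.96-fold. The comparisons share arrays, and each older generation shares the 1st as reference, so their values are not independent of one another.

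**Figure D3:**
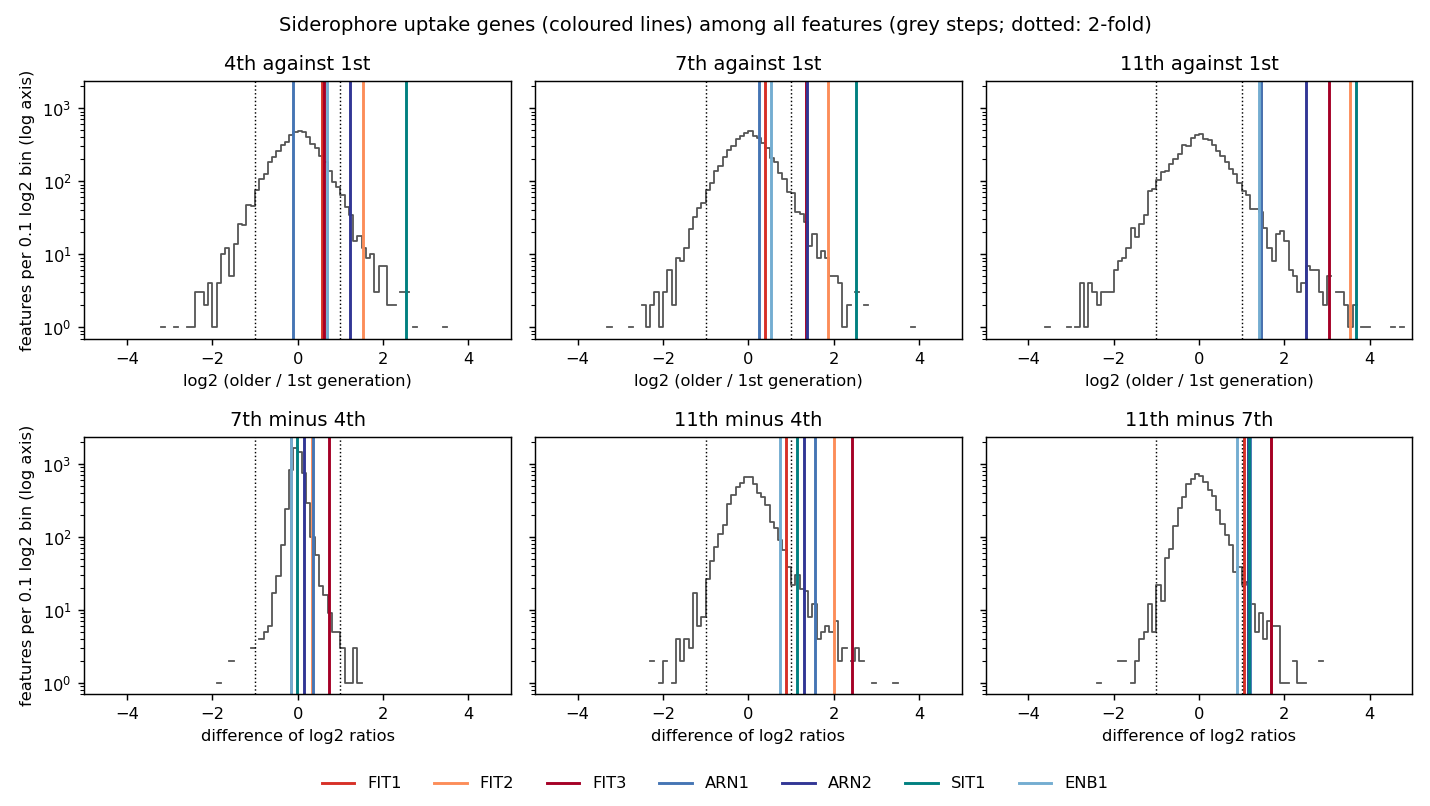
Number of features per bin of log2 ratio (grey steps, log axis) in the 3 comparisons with the 1st generation and the 3 between older generations, with the 7 genes as coloured lines and 2-fold as dotted lines. On the 11th generation array all 7 lie at 1.41 or above, and between the 7th and the 4th generation they lie between -0.17 and 0.73.

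The 1st generation channel should be alike on the 3 arrays, and it was for most of the genes. After scaling to the median feature, the highest over the lowest Cy5 signal was 1.05 for FIT1, 1.08 for ENB1, 1.09 for SIT1, 1.16 for FIT2 and 1.17 for ARN2, near the median of 1.10 over 5444 features. FIT3 with 1.75 and ARN1 with 2.53 were wider than 96.6% and 98.7% of features. The Cy3 signals alone were also compared between older generations, less the blank signal and scaled to the median feature. The offset and the loess step drop out here together with the reference, so a gap from the ratio does not isolate the reference. In Cy3 alone FIT3 was 6.75-fold and FIT2 4.21-fold higher at the 11th than at the 4th generation, ARN2 2.18-fold and FIT1 2.47-fold. SIT1, at 1.89-fold, and ENB1, at 1.52-fold, were below 2-fold. ARN1 was 37.7-fold higher, from the spot that was near background on the first array, and 1.70-fold higher between the 7th and the 11th. In that last comparison 4 of 7 were at least 2-fold higher in Cy3 alone, where 6 were by ratio, with SIT1 at 1.86-fold and ENB1 at 1.61-fold. The share of all features past 2-fold in Cy3 alone is not given here, so the 4 of 7 has no share to be set against.

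The other iron genes were set beside them, as lists chosen by role. Of 34 such genes 33 were above background on the 11th generation array, of which 13 passed 2-fold upwards (7.35% of all features did) and 1 downwards (5.51% did). Their median log2 ratio was 0.73, against 2.51 for the siderophore genes. At the 4th generation 10 of 32 were higher, against 4.19% of features, and at the 7th 8 of 33, against 4.56%. Inside print blocks the counts were 4 and 5, while the shares of features given here are from the main processing alone. From the 4th to the 11th generation 3 of 32 passed 2-fold upwards, against 2.66% of features, and the median difference was 0.16, where that of the 7 siderophore genes was 1.30. In that comparison 1 of 32 passed 2-fold downwards, where 50 of 5645 features did. It is CCC1 of the iron storage list, named here after its values were seen, 2.34-fold lower and at -1.04 on the log2 scale inside blocks.

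Among genes that save or recycle iron, 5 of 6 passed 2-fold at the 11th generation, against 7.35% of features. TIS11, which marks mRNAs of iron-using proteins for decay when iron is short, was 3.78-fold, 5.02-fold and 10.7-fold higher at the 4th, 7th and 11th generation. LSO1, a small protein induced in low iron, was 6.50-fold higher at the 11th, HMX1, the heme oxygenase that frees iron from heme, 5.77-fold, and VHT1, the biotin permease, 3.82-fold. TIS11, LSO1 and HMX1 are the 3 that were at least 2-fold higher at the 11th than at the 4th generation (2.66% of features were). They were higher by 2.83-fold, 4.28-fold and 2.002-fold. HMX1 sits at the threshold and was under it inside blocks, at a log2 difference of 0.88. VHT1 was near one level throughout, with log2 ratios of 2.06, 1.998 and 1.93. The authors' deposited table gives larger log2 ratios at the 11th generation for LSO1, HMX1 and VHT1, at 3.85, 3.28 and 3.10. LSO1 was dim in the reference, with Cy5 signals of 36.9, 35.7 and 56.9 against blank limits of 32.2, 26.4 and 29.6.

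The reductive route, in which iron is reduced at the surface, oxidised by Fet3 and carried in by Ftr1, had 3 of 4 genes past 2-fold at the 4th generation (4.19% of features) and 1 at the 11th (7.35%). FET3 was 2.28-fold, 2.13-fold and 3.20-fold higher at the 3 generations, and inside blocks its log2 ratios were 0.82, 0.72 and 1.31. It was the one past 2-fold at the 11th. FTR1, the permease, was 2.02-fold, 1.94-fold and 1.82-fold higher, and CCC2, which supplies copper to Fet3, 2.26-fold, 2.15-fold and 1.73-fold. Inside blocks the log2 ratios were 0.56, 0.46 and 0.42 for FTR1 and 0.86, 0.78 and 0.65 for CCC2. FET3, FTR1 and CCC2 were thus all under 2-fold at the 4th generation inside blocks. The authors' deposited table has CCC2 at 2.55, 2.32 and 1.95 on the log2 scale. Between the 4th and the 11th generation the copper chaperone ATX1 was higher by 0.999 on the log2 scale, just under 2-fold, and by 1.03 inside blocks. Of the 8 ferric reductase genes, FRE3, FRE5 and FRE6 were 2.58-fold, 2.26-fold and 2.18-fold higher at the 11th. Inside blocks their log2 ratios were 1.51, 1.0007 and 0.58, which puts FRE5 at the threshold and FRE6 under it. FRE5 was dim in the reference, with Cy5 signals of 32.2, 27.3 and 34.2 against blank limits of 32.2, 26.4 and 29.6. The authors' deposited table has FRE3 at 2.45 and FRE5 at 3.21 on the log2 scale. FRE3 encodes a reductase that acts on siderophore-iron. FRE7 was 4.64-fold lower at the 11th, FRE8 1.76-fold and FRE1 1.67-fold, while FRE2 and FRE4 were at 0.11 and 0.16 on the log2 scale. The median of the 8 reductase genes was 0.13, where that of all features was 0.03, and 0.83 in the authors' deposited table. In the vacuole, FTH1 and SMF3, which let stored iron out, were 4.09-fold and 2.04-fold higher; SMF3 was at 0.73 inside blocks. FET4, a low-affinity metal transporter, was 2.63-fold higher at the 11th and 2.29-fold at the 4th.

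Among 7 regulators only YAP5, a factor of the high-iron response, passed 2-fold at the 11th generation, at 2.49-fold. A count of 1 of 7 is near the share of all features, 7.35%. AFT1, named here after its values were seen because it is the activator of the 7 genes, had log2 ratios of 1.02, 1.01 and 0.73, and of 0.68, 0.71 and 0.48 inside blocks. GEX1 and GEX2, the other transporters related to the ARN family, were at or near the blank limits: GEX1 was not above it in either channel of any array, and GEX2 exceeded it in Cy5 on the 7th generation array and in Cy3 on the 11th alone.

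**Figure D4:**
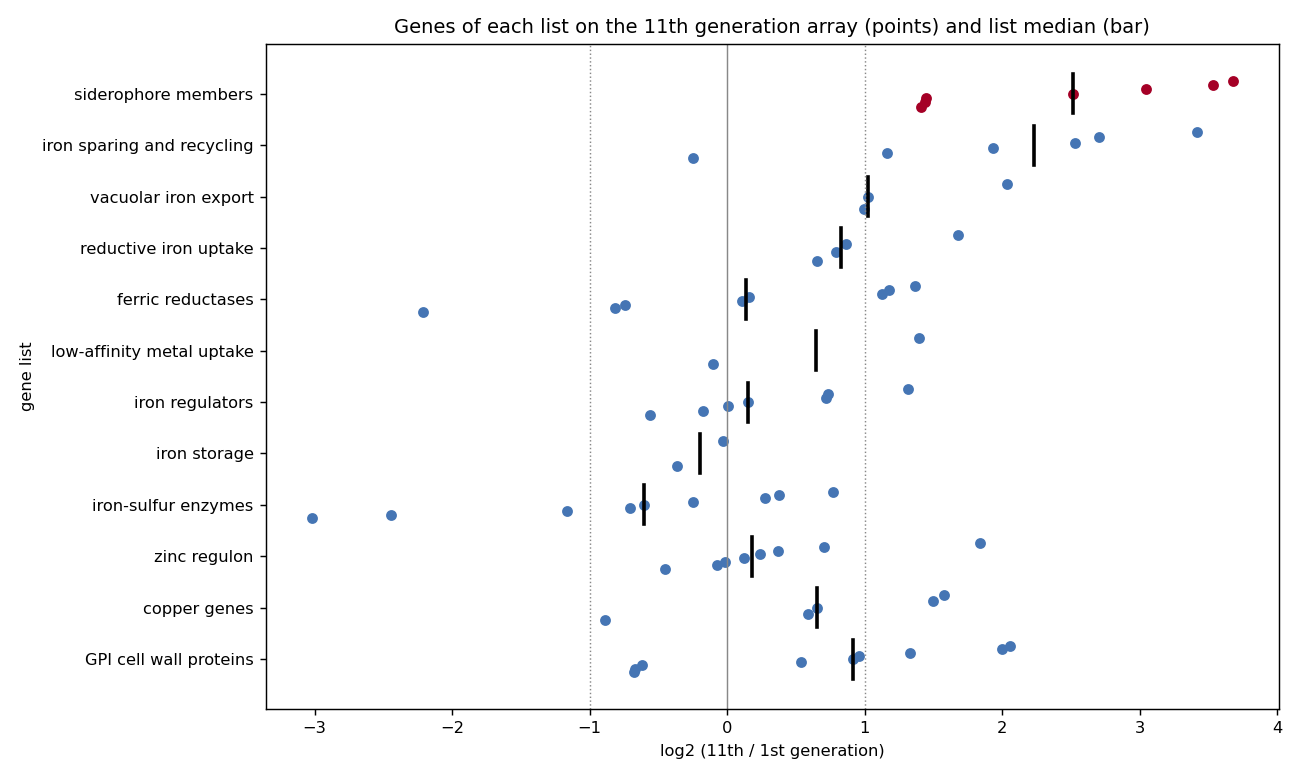
Log2 ratio of the 11th over the 1st generation (horizontal axis) for each gene above background (points) of the lists on the vertical axis, with the list median as a bar and 2-fold as dotted lines. The 7 siderophore genes lie between 1.41 and 3.68, and iron-sulfur enzymes reach down to -3.02.

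Lists outside iron uptake were read for comparison, against the 7.35% of features that were at least 2-fold higher and the 5.51% that were lower at the 11th generation. Of 9 iron-sulfur enzymes 3 passed 2-fold downwards at the 11th generation and none upwards: ILV3, of branched-chain amino acid synthesis, was 8.10-fold lower, LEU1, of leucine synthesis, 5.46-fold and GLT1, the glutamate synthase, 2.25-fold. The median log2 ratio of the 9 was -0.60, and -0.23 inside blocks. Of the 9, 3 were above 0, with BIO2 the highest at 1.70-fold, and at 2.32-fold at the 7th generation. The zinc regulon had 1 of 8 genes at least 2-fold higher, IZH2 at 3.58-fold, which is near the share of all features, with a median of 0.18. Of 5 copper genes 2 were higher, the copper-sensing factor CUP2 at 2.98-fold and the vacuolar transporter CTR2 at 2.82-fold, which was 0.91 on the log2 scale inside blocks. Other wall proteins with the same kind of anchor as the FIT proteins had 3 of 9 higher, YPS1, SPI1 and SED1 at 4.17-fold, 4.00-fold and 2.51-fold, though SED1 was under 2-fold inside blocks, at 0.97 on the log2 scale. The list's median was 0.91, and -0.09 in the authors' deposited table, so the direction of that list depends on the scaling. None of the 9 was 2-fold higher at the 11th than at the 4th generation, which is near the share of all features, 2.66%. SPI1 came nearest at 1.98-fold (just past 2-fold inside blocks). The median difference of the 9 was -0.17, while FIT1, FIT2 and FIT3 differed by 0.88, 2.01 and 2.42. FIT1 was thus below SPI1, at 0.99.

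The 7 genes lie near chromosome ends, with 4 to 13 genes between each and the nearer end in the RefSeq gene table of assembly R64. To see whether the genes beside them moved too, the 2 genes on either side of each were read. Of 24 such neighbours 19 had signal above background on every array, and 5 of them passed 2-fold upwards at the 11th generation, against 7.35% of features. Of these, 3 flank the pair FIT2 and FIT3: FRE3 on one side, FRE5 and the uncharacterised YOR385W on the other. FRE5 had a dim reference signal and was at the threshold inside blocks, at 1.0007. YOR385W had log2 ratios of 0.91, 1.38 and 2.36, the last 2.39 inside blocks. YOR381W-A, between FRE3 and FIT2, was not above background on every array. The other 2 lie beside ARN2: YHL048C-A at 2.45, 2.54 and 2.80, already high at the 4th generation, and the seripauperin PAU13 at 0.06, 0.22 and 2.02. Next to FIT1, ARN1, SIT1 and ENB1 no neighbour reached 2-fold at the 11th generation, and their log2 ratios ran from -0.75 for HSP31 beside FIT1 to 0.44 for CSS3 beside ENB1. HPA3, the gene before SIT1, was at -1.63, -1.21 and -0.27 while SIT1 itself was at 2.53, 2.51 and 3.68.

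**Figure D5:**
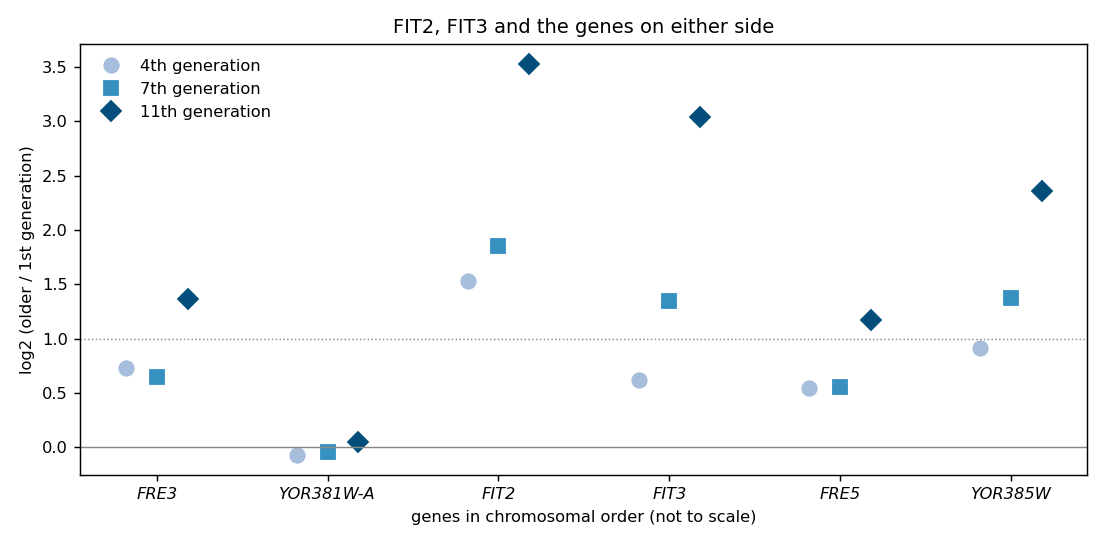
Log2 ratio against the 1st generation (vertical axis) of FIT2, FIT3 and 2 genes on each side in chromosomal order (horizontal axis, not to scale) at the 4th (circles), 7th (squares) and 11th (diamonds) generation. FRE3, FIT2, FIT3, FRE5 and YOR385W are above 2-fold at the 11th generation. YOR381W-A, which was not above background on every array, is at -0.07, -0.04 and 0.05.

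Features with a like course were sought by the distance between their 3 log2 ratios and the median ratios of the 7 genes, 0.68, 1.35 and 2.51, over 5309 features above background in both channels of all arrays. Nearest was TDH1, an isoenzyme of glyceraldehyde-3-phosphate dehydrogenase, at 0.63, 1.31 and 2.58, a distance of 0.09. YOR385W, the neighbour of FIT3 and FRE5, came next at a distance of 0.28, followed by the wall mannoprotein TIR3 at 0.31, the seripauperin PAU24 at 0.34 and SPO24 at 0.42. Taken gene by gene, the nearest feature was BDH2 for FIT1, MNC1 for FIT2, NQM1 for FIT3, PAI3 for ARN1, RCH1 for ARN2, FHN1 for SIT1 and TLD1 for ENB1, at distances from 0.14 to 0.33. None of these 12 features is on the iron lists. Distances were taken after the main processing alone, and with 3 arrays they say only that the values lay close.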

How the data were processed

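Per the labels, 3 two-channel 3D-Gene oligonucleotide arrays were hybridised, each with amplified RNA of 1 older generation (Cy3) and of the 1st generation (Cy5). The raw intensity of each spot in both channels is given without subtraction, per the file headers. From these the authors took off a constant for each channel of an array, and multiplied Cy3 by 1 factor per array, which the values give as 0.340, 0.324 and 0.270. Dividing Cy3 by Cy5 then gave the deposited ratio, and the deposited series table holds its log2, equal within 5e-08, with medians of 0.0006, 0.002 and 0.0007.

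Here the raw intensities were corrected with normexp (offset 50) and normalized by loess (span 0.3, 4 iterations, control spots at weight 0) in limma 3.58.1 under R 4.3.3. Spots of a feature were averaged in Python 3.11.15 with pandas 2.3.3 and numpy 2.4.6. The background limit was the mean of 320 blank spots plus 2 of their SDs, in raw signal, passed in at least 1 channel. Blocks were taken as 16 runs of equal length in file order. The steps were tested on simulated data. Systematic names were matched to RefSeq symbols for 5730 features, and 35 features that name several loci were not named. The 7 genes, the lists and the alternatives were chosen with earlier results of these data known. Named were all 7 genes, up to 4 members of a list past 2-fold at the 11th generation by size, the 5 nearest features and the nearest to each gene, and neighbours. With 1 array per generation no test was made; a pooled test over the 3 arrays was not run. Sequences are not used here.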

Additional observations from a re-analysis of the deposited data

Results flagged for a closer look

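ARN1 lay on opposite sides of 0 at different generations, with log2 ratios of -0.11 at the 4th, 0.26 at the 7th and 1.44 at the 11th; the differences from the 4th generation are 0.37 and 1.55. They were not tested, since each generation has 1 array, and on the 4th generation array both raw signals of ARN1, 66.9 and 36.8, were close to the blank limits of 56.6 and 32.2. GLT1 also lay on opposite sides of 0, at -0.0074, 0.022 and -1.17, with differences of 0.030 between the 7th and the 4th and -1.19 between the 11th and the 7th generation, likewise not tested; the first is below the SD of 0.18 over all features.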

How the results depend on the processing

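No paired analysis was possible because each generation has 1 array. The count of the 7 genes at least 2-fold higher stayed within 1.5 times of the main count in the 5 comparisons that gave one, under every alternative; the widest fall was from 6 to 4 between the 7th and the 11th generation with the Cy3 channel alone. At the 7th against the 4th generation it was 0, and 1 with median centring, with plain subtraction and with the Cy3 channel alone, an alternative chosen after seeing the data; that gene is ARN1. The median log2 ratio at the 4th generation, 0.68, was 0.95 with median centring, 0.94 inside print blocks, 1.01 with plain subtraction and 1.23 from the deposited table. At the 7th, 1.35 became 1.55 inside blocks and 1.13 in the deposited values. At the 11th, 2.51 became 2.70 with median centring and 2.73 with plain subtraction, and the median difference from the 7th to the 11th generation, 1.16, became 1.55 with plain subtraction. Other iron genes at least 2-fold higher were 10 at the 4th generation and 4 inside blocks, and 8 at the 7th, 5 inside blocks and 14 with plain subtraction. Between the 7th and the 4th generation they were 0, and 1 with either plain subtraction or the deposited values, and between the 11th and the 7th 3, and 5 in the deposited values. Shares over all features are given for the main processing alone, so counts under the alternatives have none beside them. No value of at least 2-fold for the 7 genes changed sign under these alternatives. Quantile normalization of Cy5 gave ranges of 1.78 for FIT3 and 2.44 for ARN1. The cause of these shifts was not tested, apart from the offset of 50, which by construction pulls the ratios of dim genes towards 0. Signal over background limits ARN1 on the 4th generation array and FIT1 on all 3.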
